A study of Mus musculus with 8 samples.

Results

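The 9 genes described here are linked to antigen presentation and were followed in activated cultures labelled as mouse microglia. They are the chemokine genes Ccl22 and Ccl17, the chemokine receptor gene Ccr7, the costimulatory genes Cd40, Cd80, Cd86 and Icosl, the maturation marker Cd83, and Cd274, which encodes the checkpoint ligand PD-L1. They were chosen by name, 9 of the 31406 genes listed for both treatment groups, after the difference between the groups was known for these libraries, Ccl22 being one of the genes that had passed the test. Their levels and differences are therefore a description and carry no p-value.

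The libraries came from primary cultures of wild-type microglia, prepared from the striatum of newborn C57/BL6 pups, kept for 15 days before an activation of 48 h by interferon-γ and lipopolysaccharide (LPS). The methods list a human interferon-γ. All 8 libraries received LPS, interferon-γ and SCH58261, an antagonist of the adenosine A2A receptor, with additions at 24, 32 and 40 h. In 4 of them (A2A antagonist group) SCH58261 was the only ligand, and the other 4 (dual group) also received 2-Cl-IB-MECA, an agonist of the adenosine A3 receptor, at 200 nM. The groups follow the titles of the samples. The treatment field of the labels says the reverse, placing 2-Cl-IB-MECA with those libraries whose title has SCH58261 as the only ligand, so every direction given here rests on the titles. The names of the deposited count columns follow the titles, as do the treatments compared in the methods. Nothing in the labels says whether replicates came from separate cultures or animals, and p-values measure only the spread between these samples. No library without SCH58261 was analysed here.

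Dendritic cells and macrophages that take up antigen under inflammatory signals mature: they raise CD40, CD80, CD86 and CD83 at their surface, and CCR7 guides mature dendritic cells towards CCL19 and CCL21 in the lymph node. CCL17 and CCL22 are secreted by such cells and attract T cells through CCR4. Microglia, the resident macrophages of the brain, express several of these molecules when activated.

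The 2 chemokine genes are neighbours on chromosome 8. In GRCm38, Ccl22 lies at chr8:94745590-94751699 and Ccl17 at chr8:94810453-94812036, both on the plus strand and 58754 bases apart. The pseudogene Gnb1-ps3 and the chemokine gene Cx3cl1 are the 2 genes between them. The bases just before each start, from the RefSeq table of promoters for GRCm38.p6, are shown because the levels of both genes had a lower mean in the dual group. Capitals mark matches to TTC and GAA with 3 or 4 bases of any kind between them, the spacings that STAT factors are known to bind. The stretch of Ccl22 is chr8:94745434-94745589 and that of Ccl17 is chr8:94810203-94810452, both on the plus strand.
Ccl22: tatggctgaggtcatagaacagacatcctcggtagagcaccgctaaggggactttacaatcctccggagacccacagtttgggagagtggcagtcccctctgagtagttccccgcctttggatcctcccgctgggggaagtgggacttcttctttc
Ccl17: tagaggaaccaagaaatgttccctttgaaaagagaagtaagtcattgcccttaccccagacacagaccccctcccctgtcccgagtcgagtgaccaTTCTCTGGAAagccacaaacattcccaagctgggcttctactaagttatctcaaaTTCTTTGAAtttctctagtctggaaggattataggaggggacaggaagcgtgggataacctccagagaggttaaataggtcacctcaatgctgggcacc

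The window of Ccl17 held 1 match with 3 bases between, at chr8:94810354-94810362, and 1 with 4 bases between, at chr8:94810299-94810308. The 4 motifs searched on both strands were these 2, an interferon response element (GAAA followed by GAAA, with 2 bases of any kind between) and the NF-kB consensus. No match to any of them lay in the window of Ccl22. Of the 32851 windows of the table, 8.30% held the STAT motif with 3 bases between, 6.95% that with 4, 3.44% the interferon response element and 8.46% the NF-kB consensus. Windows were listed for 5 of the 9 genes. That of Icosl held 1 match to the NF-kB consensus and none to the others, and those of Cd80 and Cd274 held none. Ccr7, Cd40, Cd86 and Cd83 were not listed.

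Total counts per library ranged from 32630602 to 45878639. Levels are given as CPM, the count of a gene per 1000000 counts of its library, scaled by edgeR's TMM factors, and differences as the log2 fold change of the dual group over the A2A antagonist group with its standard error (SE) from the edgeR fit. A gene is called when its Benjamini-Hochberg adjusted p-value from edgeR's quasi-likelihood test is under 0.05. Of 18756 genes tested, 39 were called (0.208%), 30 of them lower in the dual group (0.16%) and 9 higher (0.048%). Of the 9 genes 1, Ccl22, was among those called lower. Since the set was put together with that call known, nothing is read from the count. Ccl22 lost its call when A2A antagonist replicate 3, A2A antagonist replicate 4 or dual replicate 3 was left out, with log2 fold changes of −0.99, −1.01 and −0.92 without them.

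**Figure D1:**
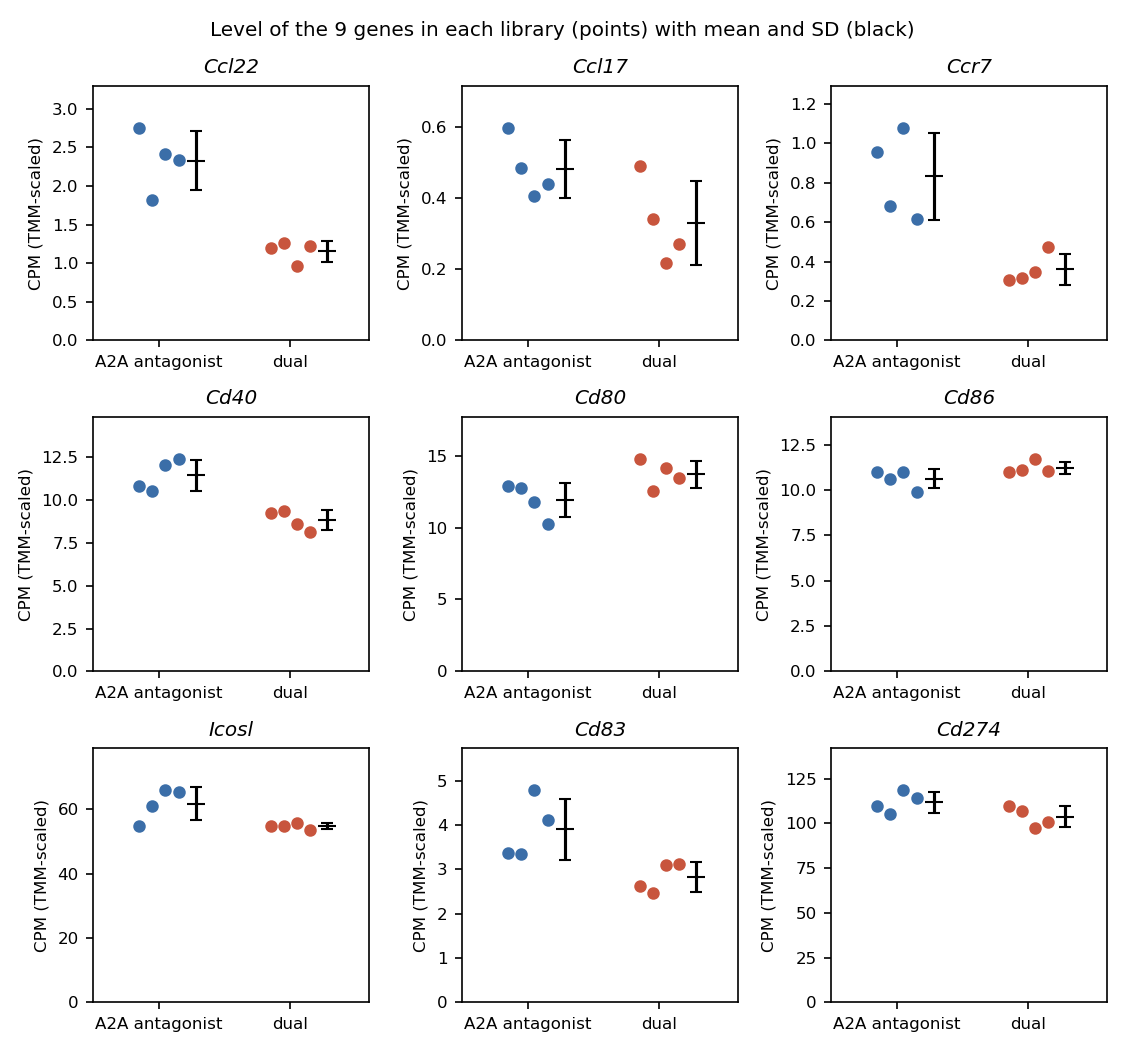
Level of each of the 9 genes in CPM (vertical axes, starting at 0) in the 4 libraries of the A2A antagonist group (blue points) and the 4 of the dual group (red points), with the mean and SD in black. Ccl22, Ccr7, Cd40 and Cd83 show 2 separate clouds with the dual libraries below, Cd86 shows them nearly touching with the dual libraries above, and those of Ccl17, Cd80, Icosl and Cd274 share part of their range.

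Ccl22 had the clearest separation of the 2 chemokine genes. Its level in the A2A antagonist libraries was 2.75, 1.82, 2.42 and 2.33 CPM, from 106, 83, 101 and 106 counts. In the dual libraries it was 1.19, 1.26, 0.958 and 1.22 CPM, from 39, 48, 44 and 54 counts. Every dual library lay below every A2A antagonist library. Their means were 2.33 ± 0.381 and 1.16 ± 0.136 CPM (SD, n = 4 each), and the log2 fold change was −1.01 (SE 0.17), a level 50.3% lower. Of all genes tested, 16 had a lower log2 fold change and 67 had one larger in absolute value. The SD of Ccl22 was 16.4% of its mean in the A2A antagonist group, where counting alone would give 10.1%, and 11.7% in the dual group, where counting alone would give 14.7%.

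Ccl17, whose product shares the receptor CCR4 with CCL22, was counted far less often. The A2A antagonist libraries held 23, 22, 17 and 20 counts of it, or 0.596, 0.483, 0.406 and 0.440 CPM. The dual libraries held 16, 13, 10 and 12 counts, or 0.490, 0.341, 0.218 and 0.270 CPM. Dual replicate 1 lay above 3 of the A2A antagonist libraries, so the groups overlapped. The means were 0.481 ± 0.0825 CPM and 0.330 ± 0.118 CPM (SD, n = 4 each), with a log2 fold change of −0.57 (SE 0.32). The 95% Poisson interval of the lowest count, 10, ran from 4.80 to 18.4 and that of the highest, 23, from 14.6 to 34.5, intervals that cover counting error only. A difference in Ccl17 of the size seen could not be told from the spread at this depth.

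Per library, Ccl22 had 4.91 ± 0.931 counts for each count of Ccl17 in the A2A antagonist group and 3.76 ± 0.951 in the dual group (SD, n = 4 each), and these ratios overlapped, at 3.77 to 5.94 against 2.44 to 4.50. Cx3cl1, the chemokine gene between them and the ligand of the microglial receptor CX3CR1, had 120 ± 5.95 CPM in the A2A antagonist group and 107 ± 7.51 CPM in the dual group. Its groups overlapped, and its log2 fold change of −0.17 (SE 0.047) was not called, with an edgeR adjusted p of 0.130.

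Ccr7, on chromosome 11 (chr11:99144196-99155077, minus strand), was the least abundant of the 9 genes per length and had the lowest log2 fold change among them. Its A2A antagonist libraries had 0.958, 0.681, 1.08 and 0.616 CPM, from 37, 31, 45 and 28 counts. Its dual libraries had 0.306, 0.315, 0.348 and 0.473 CPM, from 10, 12, 16 and 21 counts. The groups did not overlap. The means were 0.833 ± 0.220 CPM and 0.361 ± 0.0772 CPM (SD, n = 4 each), and the log2 fold change was −1.18 (SE 0.28). A lower one was found in 5 of all genes tested and one larger in absolute value in 27. The 95% Poisson intervals of the counts nearest to each other, 28 in A2A antagonist replicate 4 (18.6 to 40.5) and 21 in dual replicate 4 (13.0 to 32.1), overlapped, and the gene was not called.

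Cd40 encodes the receptor through which CD40 ligand on T cells activates antigen-presenting cells. Its level was 10.9, 10.5, 12.1 and 12.4 CPM in the A2A antagonist libraries and 9.25, 9.38, 8.62 and 8.11 CPM in the dual libraries. All 4 dual libraries were lower. The log2 fold change was −0.38 (SE 0.078), between means of 11.5 ± 0.903 and 8.84 ± 0.586 CPM (SD, n = 4 each).

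Cd80 and Cd86, whose products engage CD28 and CTLA-4 on T cells, were the 2 genes with a higher mean in the dual group. Cd80 had 12.9, 12.7, 11.7 and 10.3 CPM in the A2A antagonist libraries and 14.7, 12.5, 14.1 and 13.4 CPM in the dual libraries, with an overlap between the groups and a log2 fold change of 0.20 (SE 0.078). Cd86 had 10.98, 10.63, 10.98 and 9.88 CPM against 11.00, 11.08, 11.69 and 11.07 CPM. No Cd86 library of one group lay within the other, but the gap between the closest libraries was small beside the SD of 0.520 CPM in the A2A antagonist group, and the log2 fold change was 0.08 (SE 0.067). Both lie on chromosome 16, 1789480 bases apart.

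The counts of Cd40 and Cd80 were also set against each other. Per library there were 0.843, 0.826, 1.03 and 1.21 counts of Cd40 for each count of Cd80 in the A2A antagonist group. The dual libraries had 0.628, 0.748, 0.610 and 0.604. The ranges did not overlap, but given the CPM values of Cd40 and Cd80 they could not. The lowest Cd40 over the highest Cd80 of the A2A antagonist group exceeds the highest Cd40 over the lowest Cd80 of the dual group. A ratio within a library does not depend on how libraries are scaled, but its separation here adds nothing to the values of the separate genes. Neither gene was called, and the pair was formed with their values known, so the ratio is a description with no test. The ratio of Cd80 to Cd86, in contrast, overlapped between the groups, at 1.12 ± 0.0770 and 1.22 ± 0.0867 (SD, n = 4 each).

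Icosl encodes the ligand of ICOS, a costimulatory receptor of activated T cells. It had 54.8, 61.2, 65.9 and 65.4 CPM in the A2A antagonist libraries and 54.9, 54.7, 55.8 and 53.6 CPM in the dual libraries. A2A antagonist replicate 1 fell inside the range of the dual group, while the other 3 A2A antagonist libraries were above it. The log2 fold change was −0.18 (SE 0.050).

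Cd83, a surface marker of mature dendritic cells, had 3.37, 3.34, 4.78 and 4.11 CPM in the A2A antagonist libraries and 2.63, 2.47, 3.09 and 3.13 CPM in the dual libraries. The groups did not overlap, with means of 3.90 ± 0.688 and 2.83 ± 0.331 CPM (SD, n = 4 each) and a log2 fold change of −0.46 (SE 0.14). For each count of Cd86 there were 0.307 to 0.436 counts of Cd83 in the A2A antagonist libraries and 0.223 to 0.283 in the dual libraries. These ranges could not overlap, since every dual library was lower in Cd83 and higher in Cd86. The ratio therefore adds nothing to the values of the separate genes.

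Cd274 encodes PD-L1, the ligand that restrains T cells through PD-1. It had 109.7, 104.9, 118.4 and 113.9 CPM in the A2A antagonist libraries and 109.9, 106.9, 97.5 and 100.7 CPM in the dual libraries. The groups overlapped and the log2 fold change was −0.11 (SE 0.044). Of its 3622 exon bases, 511 are shared with AC119228.1 on the opposite strand, and since the use of strand in counting was not stated, part of its counts could belong to that gene. No exon of the other 8 genes overlaps another gene. The counts of Cd274 and Icosl kept a ratio of 1.81 ± 0.130 in the A2A antagonist group and 1.90 ± 0.111 in the dual group (SD, n = 4 each).

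Among the 9 genes, 7 had a lower and 2 a higher mean level in the dual group. In 4 the groups did not overlap, with the dual libraries lower (Ccl22, Ccr7, Cd40 and Cd83), as did 4.06% of all genes tested, and 1 had them higher (Cd86), as did 3.35%. The median log2 fold change of the 9 was −0.38 and that of all genes tested was 0.0038, with 48.5% of these below 0. These figures describe a set drawn up on the same contrast. When each library was left out in turn, the log2 fold change ranged from −1.11 to −0.92 for Ccl22, from −1.34 to −1.03 for Ccr7, from −0.80 to −0.41 for Ccl17 and from −0.42 to −0.34 for Cd40.

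**Figure D2:**
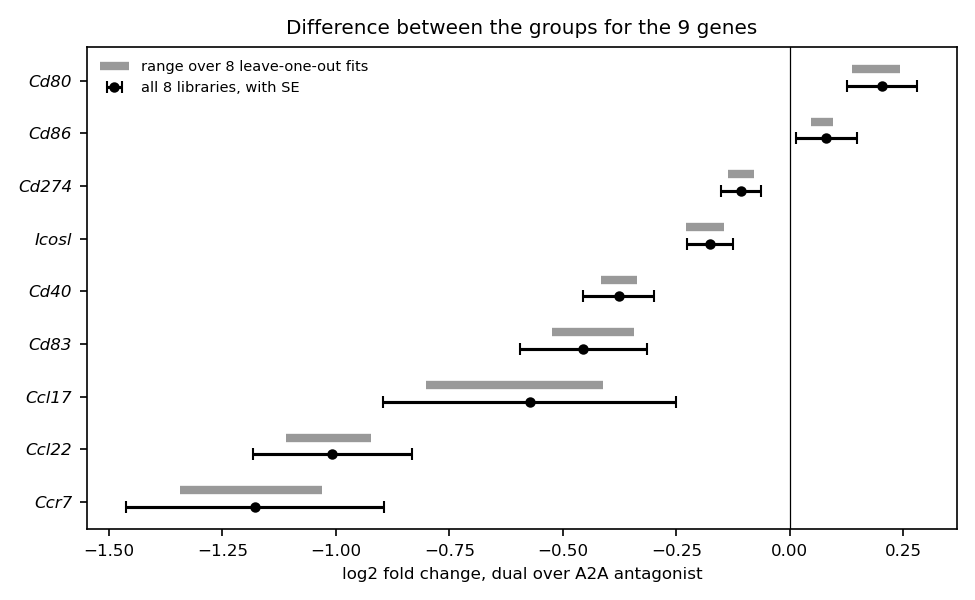
Log2 fold change of the dual over the A2A antagonist group (horizontal axis) for the 9 genes, as black points with the SE, drawn under the grey range of the 8 fits that each leave out 1 library. The grey ranges of Cd80 and Cd86 lie above 0 and those of the other 7 genes below it, with Ccr7 (−1.18) and Ccl22 (−1.01) farthest from 0.

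Levels of different genes were compared by FPKM, the fragment count scaled by gene length and library size that the authors deposited. In the A2A antagonist group the order was Cd274 (30.7 ± 1.58), Icosl (13.3 ± 1.12), Cd40 (3.34 ± 0.264), Cd80 (3.20 ± 0.322), Cd86 (2.88 ± 0.140), Cd83 (1.51 ± 0.267), Ccl22 (0.995 ± 0.161), Ccl17 (0.931 ± 0.158) and Ccr7 (0.418 ± 0.110), as mean ± SD in FPKM over 4 libraries. Ranges overlapped between Cd40 and Cd80, between Cd80 and Cd86 and between Ccl22 and Ccl17, so these neighbours do not differ beyond their spread. In the dual group Cd40 came after Cd80 and Cd86, at 2.58 ± 0.169 against 3.67 ± 0.258 and 3.04 ± 0.0934 FPKM, with no overlap among the 3. Ccl22 (0.494 ± 0.0571 FPKM) came after Ccl17 (0.637 ± 0.228 FPKM) there, but their ranges overlapped. The checkpoint and costimulatory ligands Cd274 and Icosl were thus the most abundant in both groups. The chemokine and chemokine receptor genes were the scarcest. They also had the log2 fold changes farthest from 0, but that of Ccl17 could not be told from the spread.

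**Figure D3:**
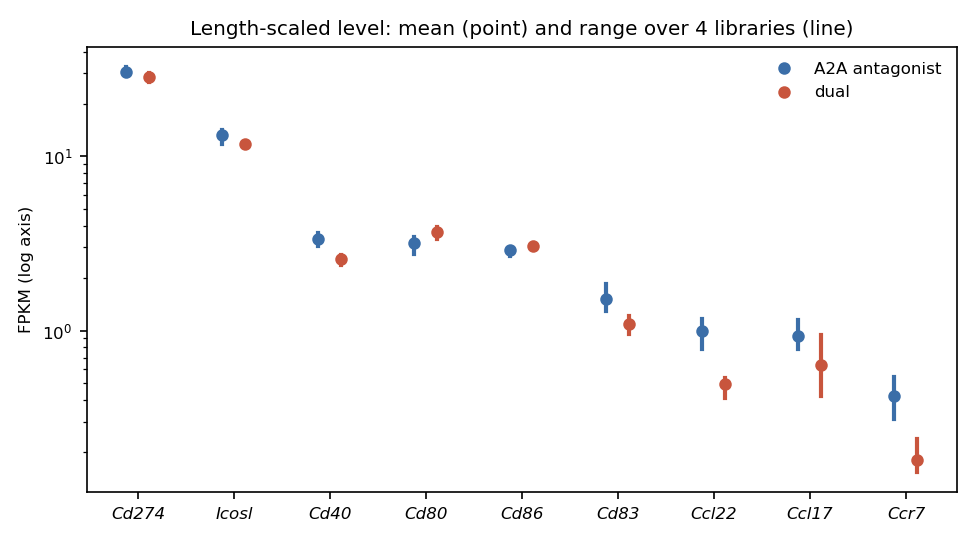
Level of the 9 genes per gene length, in FPKM on a log axis, as the mean (point) and range (line) over 4 libraries of the A2A antagonist group (blue) and the dual group (red). The genes span from 0.154 FPKM for Ccr7 to 32.5 FPKM for Cd274, and the distance between the groups is widest for Ccl22 and Ccr7.

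The likeness of 2 profiles was measured as the root mean square distance of their log2 CPM over the 8 libraries, each centred on its own mean, among 15066 genes with a mean of at least 1 CPM. The 3 nearest to Ccl22 were Ifit1bl1 (0.258), Gm17484 (0.308) and Cpa6 (0.310). The 3 nearest to Ccr7 were Ccl22 itself (0.265), Gm17484 (0.303) and Gdf6 (0.371). Ccl22 and Ccl17 were 0.352 apart and Ccl17 and Ccr7 0.532. The 8 libraries include both groups, so that a shared difference between them makes profiles alike. Gm17484, a long noncoding RNA gene, overlaps Ddhd2 and Bag4 on the opposite strand, and its counts are uncertain. Ccr7 has a mean below 1 CPM and was compared only as the starting profile.

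A further 6 lists of genes of the same pathways were drawn up for this description, with earlier results of these data known. Their shares beside those of all genes are therefore a description and no test. The lists held 88 genes in all, of which 85 were in the table and 71 were tested. Of these 1 was called lower, Fscn1, and none higher. The groups did not overlap in 8 genes with the dual libraries lower (11.3%, against 4.06% of all genes tested) and in 3 with the dual libraries higher (4.23%, against 3.35%), and the median log2 fold change was −0.04. In edgeR 15 of the 71 had an unadjusted p under 0.05 (21.1%), as had 2400 of all genes tested (12.8%). DESeq2's Wald test called 8 of them, and 417 of the 8877 genes to which it gave an adjusted p (4.7%).

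The receptors and partners of the 9 molecules were mostly at the floor. Ccr4, the receptor of CCL17 and CCL22, had 2 counts in the A2A antagonist libraries together and 3 in the dual libraries. Pdcd1, encoding PD-1, had 0 counts of 172061716 in the A2A antagonist libraries, which allows a level of up to 0.0174 CPM, and 2 counts in the dual libraries. Cd28 had 25 and 37 counts, Icos 11 and 12, and Ctla4 7 and 2. These T cell receptors and the decoy receptor gene Ackr2, at up to 4 counts a library, were not tested, and Ccl19, Ccl21a and Cd40lg were not listed. The tested genes of the list were Ackr4, a scavenger of the CCR7 ligands, at 0.497 ± 0.136 and 0.738 ± 0.0918 CPM (log2 fold change 0.56, edgeR adjusted p = 0.391), which shares 479 exon bases with Acad11 on the opposite strand, and Ccrl2, which binds chemerin, at 17.4 ± 0.974 and 16.8 ± 0.871 CPM (log2 fold change −0.05, edgeR adjusted p = 0.804).

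Of the other costimulatory and checkpoint ligands, 12 were tested and the median log2 fold change was −0.10. None was called by edgeR, 3 had an unadjusted p under 0.05, and DESeq2's Wald test called Icam1 and Lgals9. The 3 with the highest CPM were Icam1, an adhesion ligand of T cells, Lgals9 (galectin-9) and Vsir (VISTA). Icam1 had 254 ± 4.60 and 232 ± 6.46 CPM (log2 fold change −0.13, edgeR adjusted p = 0.0913), and Lgals9 had 127 ± 3.74 and 116 ± 0.286 CPM (log2 fold change −0.13, edgeR adjusted p = 0.104). Vsir had 84.4 ± 3.02 and 87.8 ± 2.30 CPM (log2 fold change 0.06, edgeR adjusted p = 0.561). For Icam1 and Lgals9 the groups did not overlap. Icam1 shares 511 exon bases with Gm47079 on the opposite strand.

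The list of the mature dendritic cell programme had 17 tested genes, of which 16 had a log2 fold change below 0, against 48.5% of all genes. Their median was −0.07. Several of the 16 lay close to 0, such as Birc3 (−0.0023) and Cacnb3 (−0.0035). The list was chosen with earlier results of these data known, so the share is no test. Fscn1, encoding fascin, the actin-bundling protein of mature dendritic cell processes, fell from 265 ± 7.21 to 236 ± 4.74 CPM (log2 fold change −0.17, SE 0.032, edgeR adjusted p = 0.0358). It passed the test with A2A antagonist replicate 1 left out and lost its call when any other single library was left out, with log2 fold changes from −0.18 to −0.15. Fascin is also made by cells that are not dendritic. In edgeR 4 of the 17 had an unadjusted p under 0.05, and DESeq2's Wald test called Fscn1 and Traf1. The lowest log2 fold change of the list was that of Il12b, encoding a subunit of IL-12 and IL-23, which was not called, at 4.23 ± 0.554 and 2.72 ± 0.664 CPM with no overlap (log2 fold change −0.62, SE 0.16, edgeR adjusted p = 0.0907). Traf1 and Il12b are named after their values were seen. Marcks, an actin-regulating substrate of protein kinase C, had 414 ± 9.99 and 399 ± 10.5 CPM (log2 fold change −0.05, edgeR adjusted p = 0.507), and its relative Marcksl1 had 282 ± 4.26 and 280 ± 4.08 CPM (log2 fold change −0.01, edgeR adjusted p = 0.938).

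In CD40 and NF-kB signalling 15 genes were tested, with a median of −0.02. None was called by edgeR, 4 had an unadjusted p under 0.05, and DESeq2's Wald test called Nfkbia, Nfkbie and Tnfaip3. In 3 of the 15 genes the groups did not overlap with the dual libraries lower, against 4.06% of all genes tested. All 3 encode inhibitors of NF-kB signalling, a shared role that was read from their values and not tested. They were Nfkbia at 523 ± 29.9 and 466 ± 13.6 CPM (log2 fold change −0.17, edgeR adjusted p = 0.0686), Tnfaip3 at 189 ± 7.38 and 169 ± 3.77 CPM (log2 fold change −0.16, edgeR adjusted p = 0.0606) and, named after its values were seen, Nfkbie at 123 ± 1.08 and 113 ± 4.37 CPM (log2 fold change −0.12, edgeR adjusted p = 0.145). All 3 missed the threshold in edgeR. The list was not sorted by role, so nothing is read about inhibitors as a class. Traf3 and Bcl3 of the same list, named after their values were seen, had overlapping groups (log2 fold changes 0.01 and −0.07). Nfkb1, encoding the p50 precursor, had 232 ± 3.80 and 226 ± 3.95 CPM (log2 fold change −0.03, edgeR adjusted p = 0.700).

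The list for the axis of IL-4, GM-CSF and STAT6, through which Ccl17 and Ccl22 are known to be induced in macrophages, had 12 tested genes. Their median was 0.07. It also held Csf1 and Csf1r, which encode M-CSF and its receptor and are not part of that axis. None was called by edgeR, 3 had an unadjusted p under 0.05 (Csf1, Csf1r and Csf2), and DESeq2's Wald test called Csf1r. Csf2, encoding GM-CSF and named after its values were seen, had 2.79 ± 0.384 and 2.04 ± 0.359 CPM. Its groups overlapped (log2 fold change −0.45, SE 0.16, edgeR adjusted p = 0.212). The most abundant genes of the list by CPM were Csf1 at 1188 ± 44.2 and 1106 ± 39.1 CPM (log2 fold change −0.10, edgeR adjusted p = 0.196), Csf1r at 218 ± 5.46 and 235 ± 8.17 CPM (log2 fold change 0.11, edgeR adjusted p = 0.171) and Il4ra at 102 ± 3.09 and 101 ± 4.61 CPM (log2 fold change −0.01, edgeR adjusted p = 0.966). Csf1r shares 873 exon bases with Hmgxb3 and Il4ra 571 with Gm44876, both on the opposite strand.

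MHC class II presentation had 13 tested genes and a median of −0.06. None was called by edgeR or by DESeq2's Wald test, and 1 had an unadjusted p under 0.05, H2-DMb1. Its proteases Ctss, Ctsl and Lgmn, which cut antigen and the invariant chain, had log2 fold changes of −0.06 (SE 0.035), −0.02 (SE 0.032) and −0.06 (SE 0.039), with edgeR adjusted p-values of 0.499, 0.868 and 0.527. Over the 8 libraries they ranged from 295 to 333, from 495 to 541 and from 216 to 246 CPM. Ctsl shares 1742 exon bases with Gm47123 on the opposite strand and 395 with Gm49230 on its own strand. H2-Aa, a class II chain gene named after its values were seen, had 0.368 to 1.09 CPM over the 8 libraries. H2-DMb1 had 3.89 ± 0.593 and 4.87 ± 0.303 CPM. Every dual library was higher in it (log2 fold change 0.32, SE 0.12, edgeR adjusted p = 0.249). H2-Ab1, named after its values were seen, was lower in every dual library (log2 fold change −0.26, SE 0.17, edgeR adjusted p = 0.555).

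**Figure D4:**
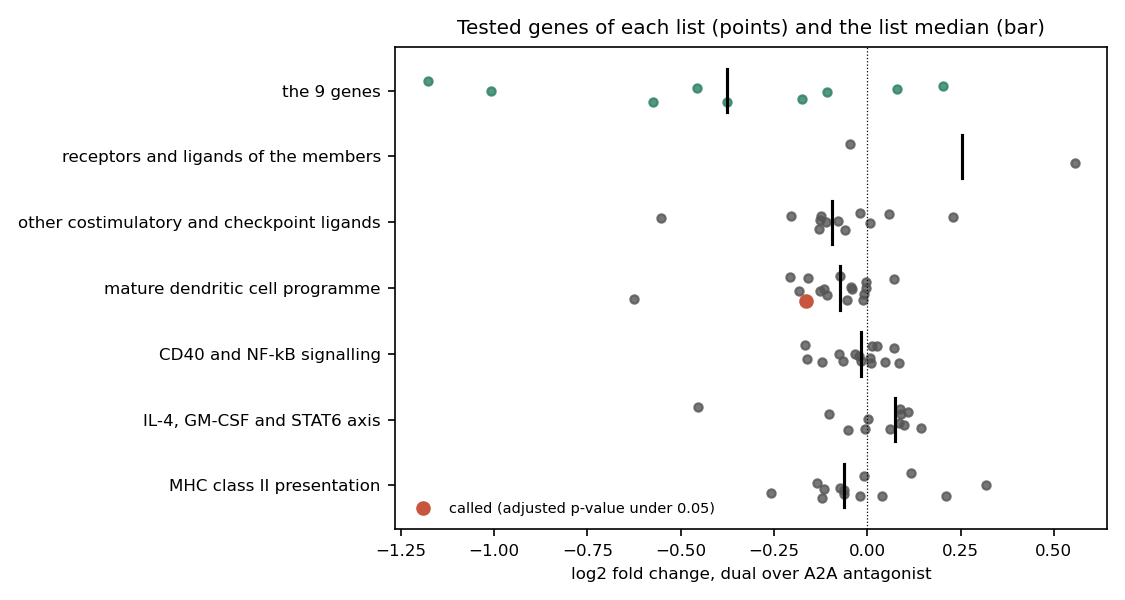
Log2 fold change of the dual over the A2A antagonist group (horizontal axis) for the 9 genes (green points) and the tested genes of 6 pathway lists (grey points, red where called), with the median of each row as a black bar. Fscn1 is the 1 red point, Ccl22 is called as well but drawn in green, and the median of the 9 genes (−0.38) is set by how they were chosen.

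The methods report a high purity of microglial cells by labelling with antibodies to CD11b. Here the cell types of the cultures were read from the RNA of chosen markers, and sums over different markers do not give shares of cells. In bulk RNA, fewer cells of a type and less RNA per cell cannot be told apart. Per length, the summed level of 8 astrocyte markers, led by Slc1a3, Gfap and Aqp4 in CPM, was 1046 to 1097 FPKM in the A2A antagonist libraries and 1076 to 1137 FPKM in the dual libraries, above that of the 10 microglial markers, at 594 to 667 and 547 to 583 FPKM, in cultures labelled as microglia. The microglial sum was lower in every dual library per length, and in CPM it overlapped, at 1086 to 1161 against 1042 to 1098. Without C1qa, a short and abundant complement gene, the sum of the other 9 overlapped on both scales, at 181 to 190 and 179 to 191 FPKM and at 652 to 673 and 656 to 686 CPM, while C1qa alone had 413 to 480 and 368 to 393 FPKM. Of the 10 markers, 4 had a log2 fold change above 0 and 6 below, with a median of −0.02. C1qa was called lower, at 476 ± 29.6 and 403 ± 11.6 CPM (log2 fold change −0.24, edgeR adjusted p = 0.0240), and the other 9 were not called by edgeR. It lost its call when A2A antagonist replicate 2, 3 or 4 or dual replicate 3 was left out, with edgeR adjusted p-values of 0.0648, 0.0791, 0.0932 and 0.0650 and log2 fold changes of −0.23, −0.24, −0.22 and −0.25. In Csf1r the groups did not overlap with the dual libraries higher, and DESeq2's Wald test called Csf1r higher and Aif1 and C1qa lower. Whether this bears on the levels of the 9 genes was not tested, and bulk RNA does not show which cell type expressed them.

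The sums of the other marker lists overlapped between the groups. The 9 markers of conventional dendritic cells, 7 of them in the table, summed to 15.9 to 17.4 CPM in the A2A antagonist and 14.7 to 16.8 CPM in the dual libraries, mostly from Zbtb46 and Batf3. Zbtb46 had 9.77 ± 0.670 and 9.40 ± 0.813 CPM, and Xcr1, a marker of the cross-presenting subset, had 1.13 ± 0.188 and 1.15 ± 0.0824 CPM, from 195 and 185 counts a group. Flt3, Itgax and Clec9a had means of at most 0.0444, 0.242 and 0.0466 CPM in either group. Markers of T cells summed to 7.27 to 8.53 and 6.52 to 7.72 CPM, mostly Lck, with means of Cd3e and Cd3d of at most 0.0130 and 0.0184 CPM. Those of B cells summed to 0.330 to 0.699 and 0.361 to 0.414 CPM, those of monocytes and neutrophils, 3 of 6 in the table, to 2.02 to 2.77 and 2.65 to 3.65 CPM, those of fibroblasts to 2377 to 2650 and 2367 to 2983 CPM, and those of oligodendrocytes to 121 to 135 and 104 to 149 CPM. None of these genes that were tested was called by edgeR or by DESeq2's Wald test. An unadjusted p under 0.05 was found in edgeR for 3 of 8 astrocyte markers, 3 of 6 fibroblast markers and the 1 tested marker of monocytes and neutrophils, against 12.8% of all genes tested.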

How the data were processed

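RNA was measured by bulk sequencing of poly-T-selected mRNA in 8 libraries, 4 per group. The authors aligned reads with HISAT2 to a mouse genome (mm10 per the labels) and counted them per gene with featureCounts 1.5.0-p3. They deposited raw counts, which were used for every test, and FPKM, which they scaled by gene length and fragments. FPKM served to compare genes and to give levels of cell type markers in both groups, and no test used it. The deposited gene length is a length in bases. The deposited tables also hold the authors' own comparisons (log2 fold change with raw and adjusted p-value), which were not used, and 9 per-sample columns of 3 libraries that have no sample in this series and were not used in any step. The 9 genes were joined by identifier between the 2 deposited tables. The antagonist counts were identical there over 30302 shared genes.

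Counts of 32630602 to 45878639 per library were filtered with filterByExpr (minimum count 10), scaled with TMM and tested with edgeR 4.0.16 in R 4.3.3 (quasi-likelihood, two-sided, Benjamini-Hochberg over all genes tested). The test was checked on simulated data. DESeq2 1.42.0 (size factors, Wald test), no filter, a replicate block and leaving out each library were the alternatives, and the microglial marker sum without C1qa was added after seeing the data. The 9 genes and all lists were chosen with earlier results of these data known. Named are the 9 genes, genes called and the 3 with the highest CPM in each list, the receptors and ligands, and the 3 genes most like Ccl22 and Ccr7. Replicate numbers did not pair the samples.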

Additional observations from a re-analysis of the deposited data

Results flagged for a closer look

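In 3 of 54 groups of 4 libraries, over the genes named from the 9 and the lists, 1 library stood apart from the other 3 by Dixon's criterion, which chance meets in about 1 of 20 groups. Cd86 had 11.6908 CPM in dual replicate 3, against 10.9957 to 11.0824 CPM in the other dual libraries. Fscn1 had 229.014 CPM in dual replicate 4, against 237.877 to 238.91 CPM. Marcks had 414.569 CPM in the same library, against 392.479 to 394.71 CPM.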

How the results depend on the processing

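No log2 fold change of the 9 genes changed direction under any of the 12 alternatives (108 values), and none moved by more than the spread within a group. For the fits that leave out 1 library the second outcome was fixed in advance. Leaving out 1 of 4 values moves a mean by less than their SD, so nothing is read from it there. Counts of calls moved more. All genes called were 39, and 417 with DESeq2's Wald test (119 higher, 298 lower), 366 without the low-count filter, 17 with the replicate block and 0 to 172 with 1 library left out. These last were 172 without A2A antagonist replicate 1, 5, 6 and 0 without replicates 2, 3 and 4, and 31, 38, 0 and 49 without dual replicates 1 to 4, and the unadjusted p was under 0.05 for 1802 and 2092 genes in the 2 edgeR fits with 0 calls. Pathway genes called were 1, and 8 with DESeq2, 6 without the filter, 0 with the replicate block (14 at an unadjusted p under 0.05) and 0 to 4 with 1 library left out. The cause of these differences was not tested. Of the 9 genes, Ccl22 was called, and also with DESeq2's size factors. DESeq2's Wald test gave an adjusted p to 2 of the 9 and called Icosl. Without the filter Ccl22, Ccr7, Cd40 and Icosl were called, and without A2A antagonist replicate 1 Ccl22, Cd40 and Icosl. None of the 9 was called with the replicate block or without A2A antagonist replicate 3, replicate 4 or dual replicate 3. The 9 genes were chosen with this contrast known, so nothing is read from these counts. The replicate numbers did not pair the samples: same-numbered libraries correlated at −0.14 to −0.04 and 0 of 4 matched best with their own number. At 10 to 45 counts a library, Ccl17 and Ccr7 are limited by depth.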
